A study of Mus musculus with 92 samples.

Results

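Claudins are the membrane proteins that build the strands of tight junctions, the seals between neighbouring epithelial cells. A set of 10 was followed here, all those on a list of symbols fixed for this purpose: Cldn1, Cldn2, Cldn3, Cldn4, Cldn6, Cldn7, Cldn8, Cldn12, Cldn15 and Cldn23. Every one of these 10 symbols had a row in each of the 4 raw count tables, which hold 54532 gene rows and 35 symbols of the form Cldn plus a number. The list was drawn up by name, with earlier results of these data known.

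In each claudin the loops outside the cell decide what a junction lets through. Cldn2 and Cldn15 form pores for small cations and water, and in the gut they let sodium return to the lumen, where nutrient uptake needs it. Cldn1, Cldn3, Cldn4, Cldn7 and Cldn8 are counted among the sealing or barrier claudins, although the action of Cldn4 and Cldn7 depends on the tissue. In the normal small intestine Cldn2 is known as a claudin of the crypt, the pit that holds stem and Paneth cells, and Cldn15 is found in crypts and on villi, the absorptive fingers. Cldn6 is best known from embryonic epithelia, Cldn12 lacks the tail motif by which most claudins bind scaffold proteins, and Cldn23 is found in differentiated epithelium.

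The series followed mouse intestine after deletion of Eif4g2, a translation initiation factor related to eIF4G, in 92 libraries of 21 groups. Floxed alleles were cut by a tamoxifen-activated Cre (CreER) expressed from Rosa26, which is active in nearly all cell types, or from Vil1, which is active in intestinal epithelium. In the Rosa26 mice, crypts (4 homozygous and 5 heterozygous) and villi (5 and 5) were taken on day 9 after tamoxifen. In the Vil1 mice, crypts (3 homozygous and 4 heterozygous) and villi (6 and 4) carry the time 3 months, with tamoxifen at 100 mg/kg. Homozygous mice were Eif4g2(flox/flox) and heterozygous mice Eif4g2(flox/+), so the heterozygous controls had received tamoxifen and carried CreER and a single floxed allele. The ages of the mice are not given in the sources used here. Small intestinal organoids and fetal intestinal spheroids, both Rosa26(CreER), were grown in ENR medium (EGF, Noggin and R-spondin), received DMSO or 0.5 µM 4-hydroxytamoxifen (4-OHT), and were collected on day 6. A first organoid set compared 4-OHT with DMSO in 3 flox/flox lines. A second set gave 4-OHT to 4 flox/flox, 4 flox/+ and 4 Eif4g2(+/+) cultures that carried CreER only, with no DMSO arm. The spheroids were 6 flox/flox and 5 flox/+ lines, each with DMSO and with 4-OHT. A separate experiment gave 4 organoid lines DMSO or A-485, an inhibitor of the p300 and CBP histone acetyltransferases, at 3, 5 and 10 µM for 4 days. Of those lines, replicate 1 was Eif4g2(+/+) with CreER and the other 3 were flox/flox with CreER, without 4-OHT, by the sample labels, while the series' own outline calls these organoids wild-type.

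Promoter sequence is printed for the 3 claudins that moved furthest among those tested at the highest dose of A-485 and above 100 CPM in at least one group there, Cldn15, Cldn2 and Cldn4 (values below). They were chosen with those values known. Each run is the 250 bases before a RefSeq start on GRCm38.p6, read 5′ to 3′ on the gene's own strand, and capitals mark letters that match a searched motif.
Cldn2, chrX:139800558-139800807, plus strand: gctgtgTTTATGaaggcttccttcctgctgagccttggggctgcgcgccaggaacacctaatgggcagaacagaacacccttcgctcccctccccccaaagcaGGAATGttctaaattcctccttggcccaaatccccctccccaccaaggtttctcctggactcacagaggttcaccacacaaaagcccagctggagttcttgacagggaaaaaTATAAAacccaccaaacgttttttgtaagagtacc
Cldn15, chr5:136967619-136967868, plus strand: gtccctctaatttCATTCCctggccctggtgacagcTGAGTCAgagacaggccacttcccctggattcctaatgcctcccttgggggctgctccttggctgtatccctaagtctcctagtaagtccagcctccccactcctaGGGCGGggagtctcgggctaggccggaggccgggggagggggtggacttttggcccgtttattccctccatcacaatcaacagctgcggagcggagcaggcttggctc
Cldn4, chr5:134946935-134947184, minus strand: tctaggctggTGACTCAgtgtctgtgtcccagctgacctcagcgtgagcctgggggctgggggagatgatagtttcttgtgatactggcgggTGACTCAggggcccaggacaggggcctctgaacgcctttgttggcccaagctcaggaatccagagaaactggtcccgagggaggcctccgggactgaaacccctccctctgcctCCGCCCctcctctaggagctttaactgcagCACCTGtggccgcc
Searches covered both strands. The AP-1 motif was searched as TGANTCA, and 6.75% of 32851 RefSeq promoter runs of this length held it. The TEAD motif was searched as GGAATG and was in 12.6% of them. For CDX the search word was TTTATG, which 10.8% held. For GATA it was AGATAA, in 9.99%. For HNF1 it was GTTAAT, in 6.43%. For TCF it was CTTTGA, in 13.8%. The E-box was searched as CACCTG (17.2%), and the GC-box as GGGCGG (32.7%). A TATA match meant TATAAA, which 12.4% held. The Cldn4 run held AP-1 letters at 240 and 158 bases before the start, a GC-box at 44 and an E-box at 14. In the Cldn2 run there was a TATA match at 35 bases, a TEAD match at 147 and a CDX match at 244. The Cldn15 run had AP-1 letters at 214 bases, TEAD letters at 237 and a GC-box at 108. A match is a description of letters, not of a bound site.

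The gene models of the tables (GRCm38/mm10) place Cldn2 (ENSMUSG00000047230) on chromosome X at 139800828 to 139811386, plus strand. Cldn15 (ENSMUSG00000001739) lies on chromosome 5 at 136966616 to 136975858, plus strand. Cldn4 (ENSMUSG00000047501) and Cldn3 (ENSMUSG00000070473) are also on chromosome 5, at 134945119 to 134946934 on the minus strand and at 134986214 to 134987472 on the plus strand, 39279 bases apart. Cldn7 (ENSMUSG00000018569) is on chromosome 11 at 69964779 to 69967885, Cldn6 (ENSMUSG00000023906) on chromosome 17 at 23679249 to 23682446, Cldn1 (ENSMUSG00000022512) and Cldn8 (ENSMUSG00000050520) on chromosome 16 at 26356642 to 26371841 and 88560828 to 88563183. Cldn12 (ENSMUSG00000046798) is on chromosome 5 at 5489537 to 5514958 and Cldn23 (ENSMUSG00000055976) on chromosome 8 at 35824712 to 35826559. Only Cldn3 overlapped another model of the tables, the antisense gene Wbscr25, by 40 bases.

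Totals ran from 22458821 to 37611126 reads in the tissue and first organoid libraries, from 14790237 to 30878778 in the second organoid set and the spheroids, and from 8652040 to 16436145 in the A-485 libraries. Eif4g2 itself was lower in the deleted groups: 67.9 to 98.2 CPM (read counts scaled to the size of the library) in homozygous Rosa26 crypts against 337 to 357 in heterozygous ones, and 231 to 240 against 437 to 488 in Vil1 crypts. In the cultures it was 144 to 148 against 704 to 793 CPM in the first organoid set, and 88.8 to 228 against 737 to 1229 in flox/flox spheroids. The tissue labels matched their markers: the 5 stem genes (Lgr5, Olfm4, Ascl2, Smoc2, Axin2) summed to 3826 to 6539 CPM in heterozygous Rosa26 crypts and to 27.3 to 75.0 in the villi. Reads from the mitochondrial genome took 13.7% to 25.2% of homozygous and 6.24% to 12.4% of heterozygous Rosa26 crypt libraries. In Vil1 crypts they took more, 30.4% to 40.3% of homozygous and 17.5% to 30.8% of heterozygous libraries. Y-linked Ddx3y reads were present in every heterozygous Rosa26 library but in the homozygous ones only in crypt replicate 1 and villus replicates 1 and 2, so sex and genotype were partly confounded there. Levels below are CPM after TMM scaling within each experiment, and CPM from different experiments were scaled separately. In bulk libraries of this kind, fewer cells of a type and less RNA per cell cannot be told apart. Mice and most lines are named separately in the labels, but nothing says that the CreER-only cultures, lettered A to D, came from separate mice. The 11 spheroid lines carry letters under 4 shared numbers, of which 1 holds flox/flox lines only and 1 flox/+ lines only, and whether lines of a number share a litter or mother is not given in the sources used here. So p-values measure the spread between these samples, which may be partly technical.

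Divided by gene length, Cldn3 and Cldn7 took large shares of the claudin RNA in every group, while those of Cldn15, Cldn4 and Cldn2 varied. As a mean over libraries, Cldn15 took 28.7% of the 10 claudins in heterozygous Vil1 villi and 0.272% at 10 µM of A-485. In flox/flox spheroids with 4-OHT it took 2.98%, less than Cldn2 at 5.9%. In heterozygous Rosa26 crypts the mean CPM per kilobase was 299.5 for Cldn3, 267 for Cldn7, 139 for Cldn15, 53.1 for Cldn2, 16.4 for Cldn4, 12.1 for Cldn12 and 8.46 for Cldn23, and Cldn8, Cldn1 and Cldn6 were below 1. In the villi of the same mice the order changed: Cldn7 stood at 751, Cldn3 at 649, Cldn15 at 494, Cldn4 at 331 and Cldn23 at 44.4, while Cldn2 was 2.46 on the same per-kilobase scale. Cldn3 and Cldn7 held the first and second places in all Rosa26, first-set organoid, second-set organoid and A-485 groups. In Vil1 villi Cldn15 was second, and in the spheroids Cldn4 led in 3 of the 4 groups, with 368 CPM per kilobase in flox/flox spheroids given 4-OHT against 291 each for Cldn3 and Cldn7.

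**Figure D1:**
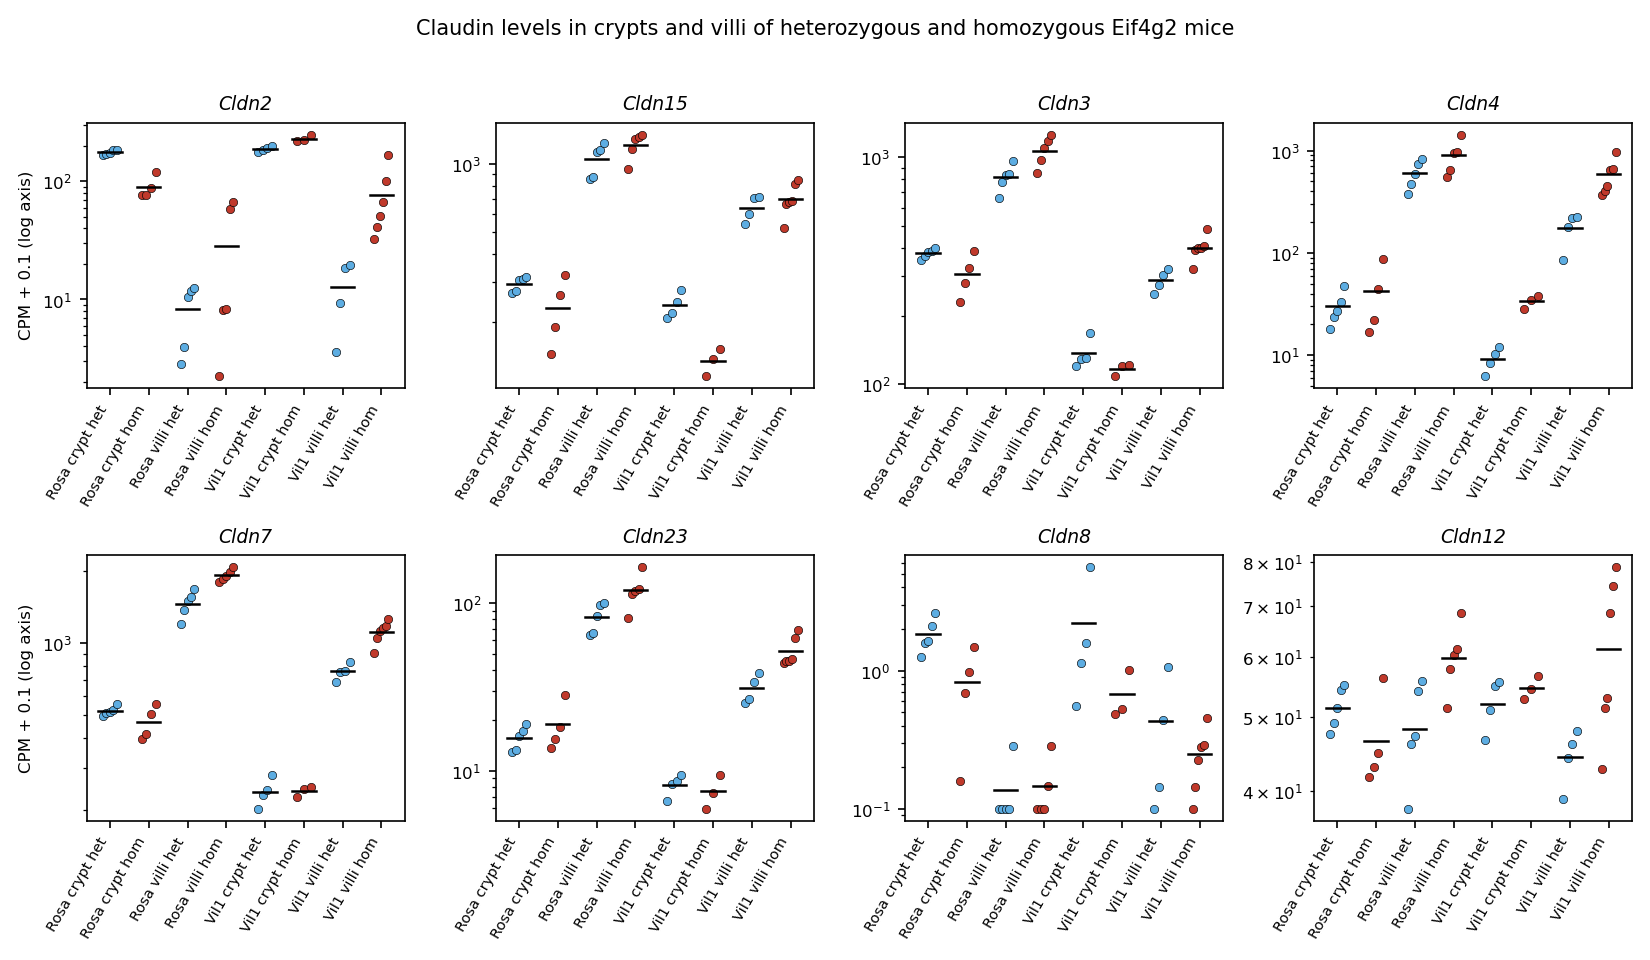
Levels of the claudins in mouse crypts and villi, as CPM + 0.1 on a log axis, by driver and genotype. Each point is 1 library and each bar the group mean; Cldn2 falls and Cldn4 rises from crypt to villus in every group, and Cldn2 in heterozygous Rosa26 crypts lies between 167 and 186 CPM, above all 4 homozygous crypts.

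**Figure D2:**
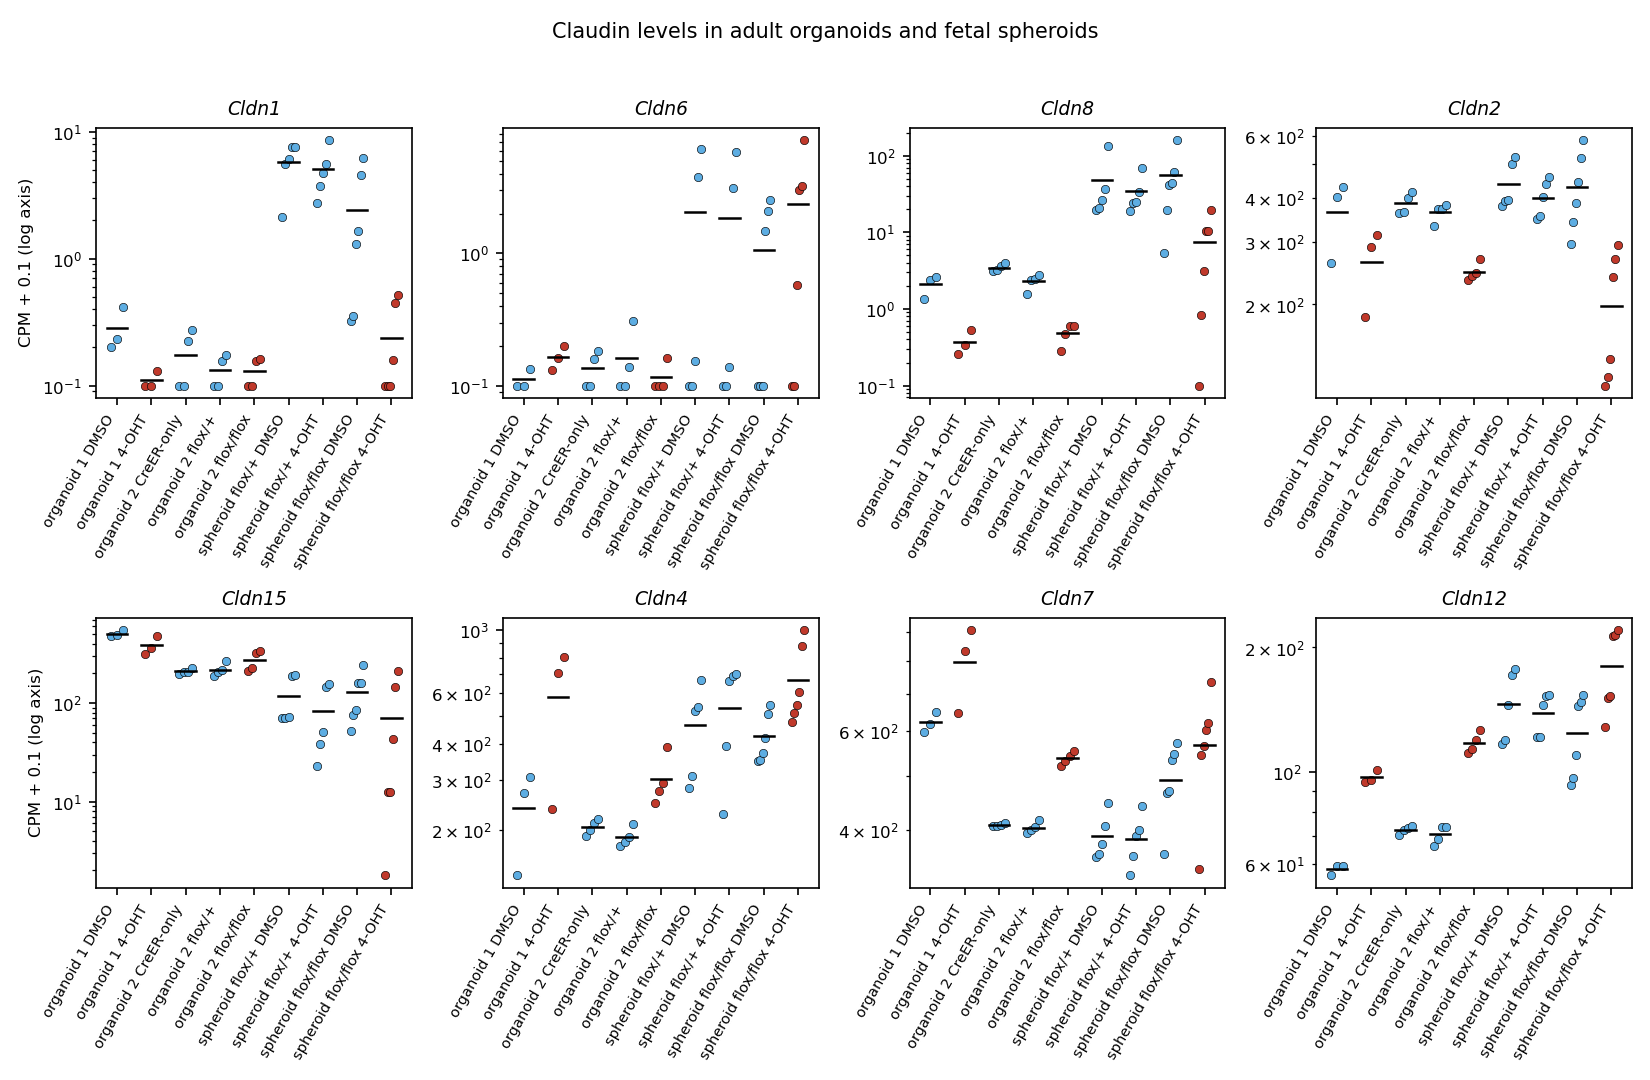
Levels of the claudins in organoids and fetal spheroids, as CPM + 0.1 on a log axis, by genotype and treatment. Each point is 1 library and each bar the group mean; Cldn8 lies at 5.28 to 160 CPM in spheroids with DMSO and at or under 3.84 CPM in second-set organoids.

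Across 24 comparisons, the count of claudins that differed was highest, at 7 of 8 tested, along the crypt to villus axis and in second-set organoids without Eif4g2. Along that axis most of all tested genes differed as well. In the Rosa26 mice and in the second organoid set the called claudins include Cldn8. It passed the filter on low counts there only through the groups where it was higher. A difference is called when its p-value from edgeR's quasi-likelihood test, adjusted by Benjamini-Hochberg over all tested genes, is under 0.05. In heterozygous mice, villi and crypts differed in 7 of 8 tested claudins with Rosa26-CreER, where 77.1% of all tested genes were called, and in 7 of 8 with Vil1-CreER, where 67.9% were. Homozygous against heterozygous Rosa26 mice gave 1 of 9 in crypts (background 20.2%) and 1 of 7 in villi (33.2%). In Vil1 mice it was 3 of 8 in crypts (29.3%) and 6 of 7 in villi (42.5%), and those 6 were all higher, a direction called for 20.9% of genes. These shares of all tested genes are the background against which each count stands. The counts in Rosa26 crypts and villi are below it, and those along the crypt to villus axis and in Vil1 crypts are not far above it.

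In organoids, 4-OHT against DMSO in the first set changed 2 of 8 tested claudins (background 35.4%). In the second set flox/flox cultures differed in 7 of 8 from flox/+ (46.8%) and in the same 7 from CreER-only cultures (45.3%), and these comparisons share the flox/flox libraries. Flox/+ against CreER-only gave 0 of 8 by edgeR, where 0.113% of all genes were called. DESeq2 also gave 0, and 2 claudins had an unadjusted p under 0.05. In flox/flox spheroids 4-OHT changed 4 of 10 (19.1%), and with 4-OHT flox/flox differed from flox/+ spheroids in 3 of 10 (10.5%). No claudin was called by edgeR or DESeq2 for 4-OHT in flox/+ spheroids (0.0% of all genes; 0 claudins at an unadjusted p under 0.05) or for genotype with DMSO (0.0% of all genes; 1 claudin at an unadjusted p under 0.05). Spheroids against organoids, both with 4-OHT, gave 5 of 9 in flox/+ cultures (47.9%) and 3 of 8 in flox/flox cultures (24.6%). All of these were higher in spheroids, a direction called for 25.1% and 15.2% of genes. In several comparisons Cldn8 passed the filter on low counts only through the groups where it was higher. Its low groups there were second-set flox/flox organoids (3 to 9 reads a library), first-set organoids with 4-OHT (5 to 14 reads), 10 µM of A-485 and Rosa26 villi. Cldn1 passed in the same way against flox/+ organoids (0 to 2 reads) and, among spheroids, only through the flox/+ cultures. So the counts describe tested claudins and not the whole set, and some include members tested only because a group was high. With A-485 the count was 2 of 8 at 3 µM (19.2%), 4 of 8 at 5 µM (49.6%) and 6 of 8 at 10 µM (62.0%), comparisons that share their DMSO libraries. Between doses it was 2 of 8 for 5 against 3 µM (24.5%) and 4 of 8 for 10 against 5 µM (18.9%).

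The test of whether the genotype effect differs between villi and crypts called 1 of 9 claudins in Rosa26 mice (11.5%). In Vil1 mice it called 4 of 8 (15.5%), all with the larger value in villi, a direction called for 9.38% of genes. Whether the 4-OHT effect differs between flox/flox and flox/+ spheroids was called by edgeR for 0 of 10 (1.62%), with 3 at an unadjusted p under 0.05. DESeq2 called 1 of them. With the line as a block, which is how those cultures were paired, 4 were called: Cldn1 (log2 difference -3.87, adjusted p = 0.00749), Cldn2 (-1.07, adjusted p = 0.00966), Cldn8 (-3.06, adjusted p = 0.0209) and Cldn12 (0.59, adjusted p = 0.00832).

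**Figure D3:**
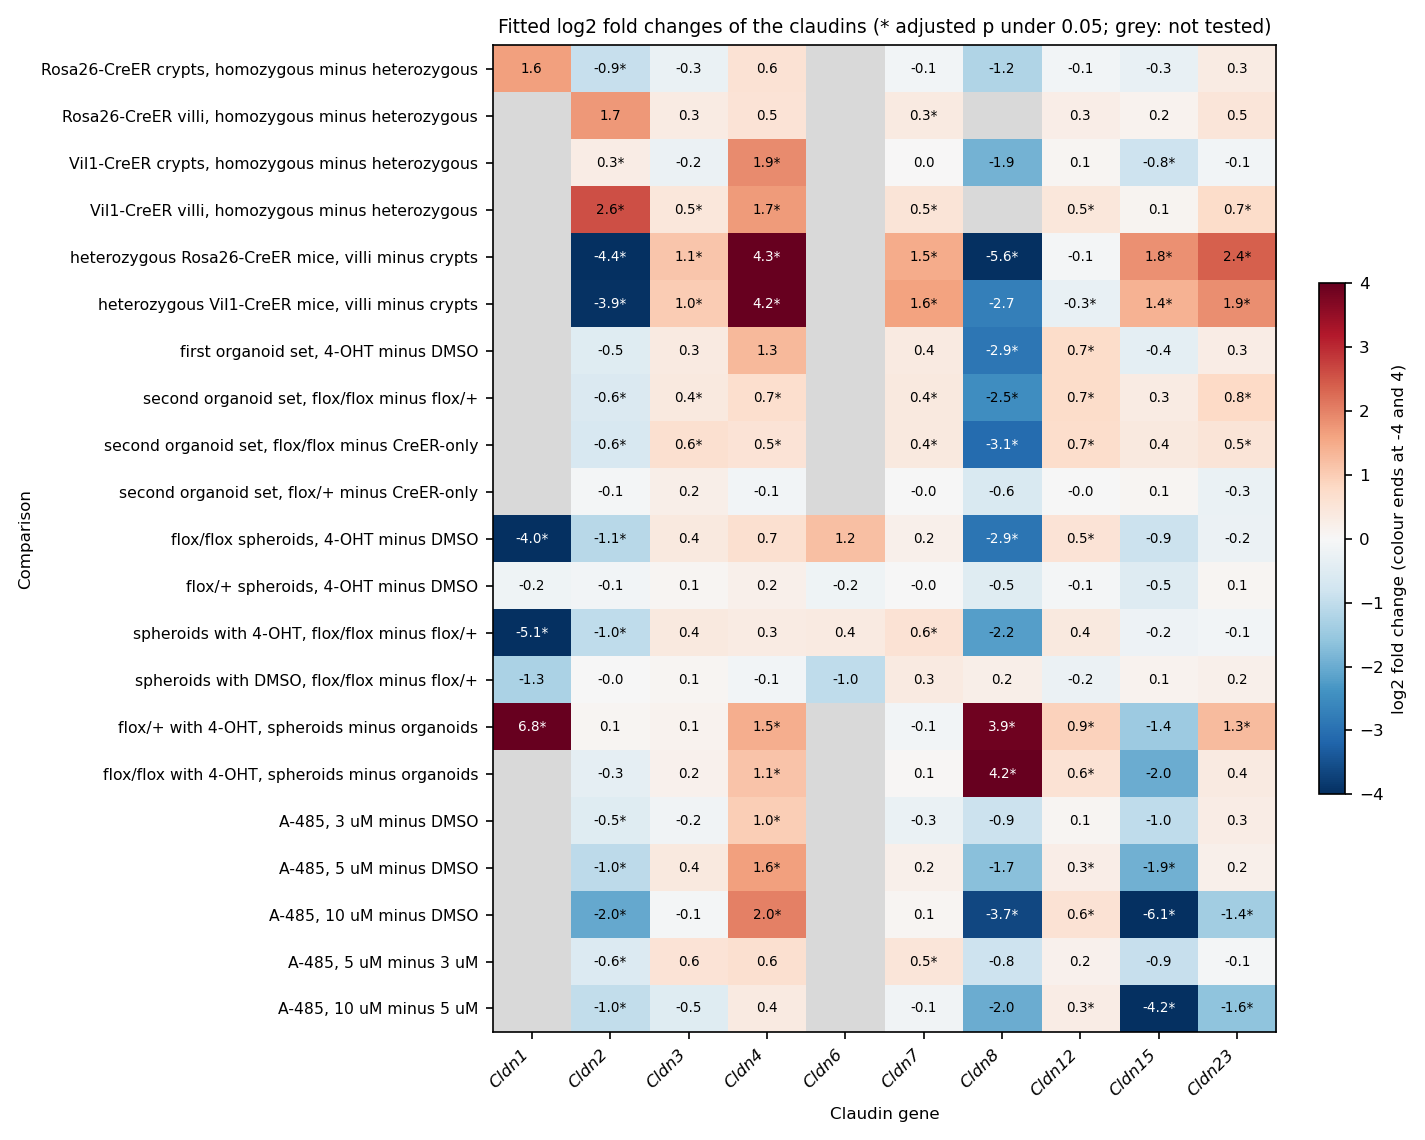
Log2 fold changes of the claudins in the comparisons of the study, with called differences marked. Reading across a gene shows Cldn4 at 0.99 to 2.01 in the 3 comparisons of A-485 with DMSO, and Cldn2 at -2.03 to -0.48 in the same ones.

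Among the pore-forming claudins, Cldn2 was high in crypts, low in villi, and lower in cultures that lost Eif4g2 (in the first organoid set only by the paired fit) and in those given A-485. Heterozygous Rosa26 crypts had 186, 184, 175, 172 and 167 CPM and the villi of the same mice 10.3, 3.87, 11.7, 12.4 and 2.73, a log2 difference of -4.42 (SE 0.38, adjusted p = 5.71e-07). In Vil1 mice the crypts had 178, 184, 191 and 198 CPM and the villi 18.4, 19.7, 9.22 and 3.48 (log2 difference -3.94, SE 0.50, adjusted p = 0.000169). The crypt and villus values did not overlap in either driver.

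With homozygous deletion crypt Cldn2 was lower in the Rosa26 and higher in the Vil1 mice, which also differ in time. They differ too in how far Eif4g2 itself was lowered. It was 67.9 to 98.2 against 337 to 357 CPM in Rosa26 crypts and 231 to 240 against 437 to 488 in Vil1 crypts. The Cldn2 effects of the drivers were not compared by a test. Homozygous Rosa26 crypts had 76.8, 120, 76.1 and 87.2 CPM, all below the heterozygous range, and the gene fell by 0.91 on the log2 scale (SE 0.147, adjusted p = 0.0034). The 5 stem genes summed to 201 to 854 CPM there against 3826 to 6539, 4 of 5 lower, and the 5 Paneth genes to 2160 to 9623 against 15122 to 20948, 5 of 5 lower. Their part in the Cldn2 result was not tested. The call was lost in a fit of all 4 Rosa26 groups (adjusted p = 0.333) and was kept with Y-linked transcripts as a covariate (-1.12, adjusted p = 0.0194). Homozygous Vil1 crypts had 248, 223 and 221 CPM, above the 4 heterozygous values, a rise of 0.30 (SE 0.08, adjusted p = 0.020). There too the stem genes were lower, 284 to 523 against 4885 to 5457 CPM (3 of 5 called), as were the Paneth genes, 356 to 909 against 3038 to 6779 (5 of 5). The Vil1 crypt call was lost without heterozygous replicate 1 (adjusted p = 0.057), without homozygous replicate 1 (0.0921) and in a fit of all 4 groups (0.742).

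In villi Cldn2 rose with homozygous Vil1-CreER deletion, to 41.0, 66.4, 32.6, 167, 51.2 and 101 CPM against 18.4, 19.7, 9.22 and 3.48. All 6 values lay above the 4 controls (log2 fold change 2.58, SE 0.63, adjusted p = 0.00915). Replicate 4, the highest, also had the highest summed stem markers of its group (200 CPM against 58.8 to 101 in the other 5) and the highest summed proliferation markers (294 against 115 to 176). Without that replicate the fold change was 2.17 (adjusted p = 0.0127). Homozygous Rosa26 villi had 8.03, 57.9, 66.3, 8.14 and 2.13 CPM, so replicates 2 and 3 were far above the heterozygous villi and the others were not (log2 fold change 1.73, SE 0.88, adjusted p = 0.159, and 0.046 in a fit of all 4 groups). Those replicates had the lowest summed enterocyte markers of their group, and their part was not tested. The genotype effect was larger in villi than in crypts of Vil1 mice by 2.30 (SE 0.71, adjusted p = 0.0409), but not with the animal as a block (adjusted p = 0.0897), and that call was lost in 10 of the 17 fits that each left out 1 library. In Rosa26 mice the difference was 2.77 (SE 0.95, adjusted p = 0.063).

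In organoids of the second set Cldn2 was 234, 245, 240 and 269 CPM in flox/flox cultures, 373, 373, 383 and 334 in flox/+ and 365, 416, 400 and 363 in CreER-only cultures. The flox/flox values were below all others, by 0.57 against flox/+ (SE 0.06, adjusted p = 5.09e-06) and by 0.65 against CreER-only (SE 0.06, adjusted p = 1.66e-06). Stem markers were lower in the same cultures, 1475 to 2327 against 5425 to 7354 CPM in flox/+ (5 of 5 called), as they were in the first set with 4-OHT (5 of 5), and their part was not tested. In the first set the 3 lines had 430, 403 and 262 CPM with DMSO and 314, 291 and 185 with 4-OHT. Each line was lower with 4-OHT while the groups overlapped, and the call depended on pairing: adjusted p = 0.182 without and 0.00303 with the line as a block (log2 fold change -0.48 in the block). In flox/flox spheroids Cldn2 was 297 to 584 CPM with DMSO (median 416) and 118 to 295 with 4-OHT (median 190), a fall of 1.12 (SE 0.22, adjusted p = 0.00158). In flox/+ spheroids it was 379 to 522 CPM with DMSO (median 395) and 348 to 460 with 4-OHT (median 404), with a log2 difference of -0.12 (SE 0.24, adjusted p = 1). With 4-OHT, flox/flox lay 1.01 below flox/+ (SE 0.23, adjusted p = 0.00773) and the values did not overlap.

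A-485 lowered Cldn2 with dose. The DMSO cultures had 519, 467, 437 and 479 CPM, 3 µM gave 297, 370, 345 and 354, 5 µM gave 232, 241, 267 and 185, and 10 µM gave 144, 109, 109 and 103. No 2 neighbouring doses overlapped. The log2 fold change against DMSO was -0.48 at 3 µM (SE 0.12, adjusted p = 0.011), -1.04 at 5 µM (SE 0.12, adjusted p = 2.31e-06) and -2.03 at 10 µM (SE 0.13, adjusted p = 3.7e-10). The steps from 3 to 5 µM (-0.56, adjusted p = 0.00298) and from 5 to 10 µM (-0.99, adjusted p = 1.52e-05) were called as well.

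Cldn15, the other cation pore, had the largest fold change with A-485 among the claudins tested. DMSO cultures had 375, 437, 374 and 389 CPM. At 3 µM there were 139, 273, 286 and 87.7 CPM, at 5 µM 63.7, 132, 159 and 63.5, and at 10 µM 4.22, 11.6, 4.37 and 1.66. Every treated culture was below every DMSO culture, and the 10 µM values lay below all others. The log2 fold change was -1.91 at 5 µM (SE 0.45, adjusted p = 0.00262) and -6.12 at 10 µM (SE 0.56, adjusted p = 1.84e-07). At 3 µM it was -1.0 (SE 0.44, adjusted p = 0.129), and -1.20 with the line as a block (adjusted p = 0.0123). Replicates 1 and 4 were the low ones at 3 and at 5 µM. Between 3 and 5 µM the block also called the difference (-0.88, adjusted p = 0.0441, against 0.155 without it), and from 5 to 10 µM the gene fell by 4.21 (SE 0.52, adjusted p = 3.88e-05).

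Markers of the cells that carry these claudins moved in the same cultures. The 6 enterocyte genes (Alpi, Apoa1, Apoa4, Sis, Lct, Fabp1) summed to 5028 to 10140 CPM with DMSO, 1963 to 4834 at 3 µM, 1561 to 3973 at 5 µM and 74.6 to 349 at 10 µM, where 6 of 6 were lower. The stem genes fell from 6409 to 7621 CPM with DMSO to 892 to 1895, 324 to 405 and 44.2 to 76.1 with rising dose, and Olfm4 had no read at 10 µM. Their part in the claudin changes was not tested. The 6 pan-epithelial genes (Epcam, Cdh1, Krt8, Krt18, Krt19, Vil1) summed to 6666 to 7314 CPM with DMSO and 12387 to 16352 at 10 µM, where 5 of 6 were higher and 0 lower.

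**Figure D4:**
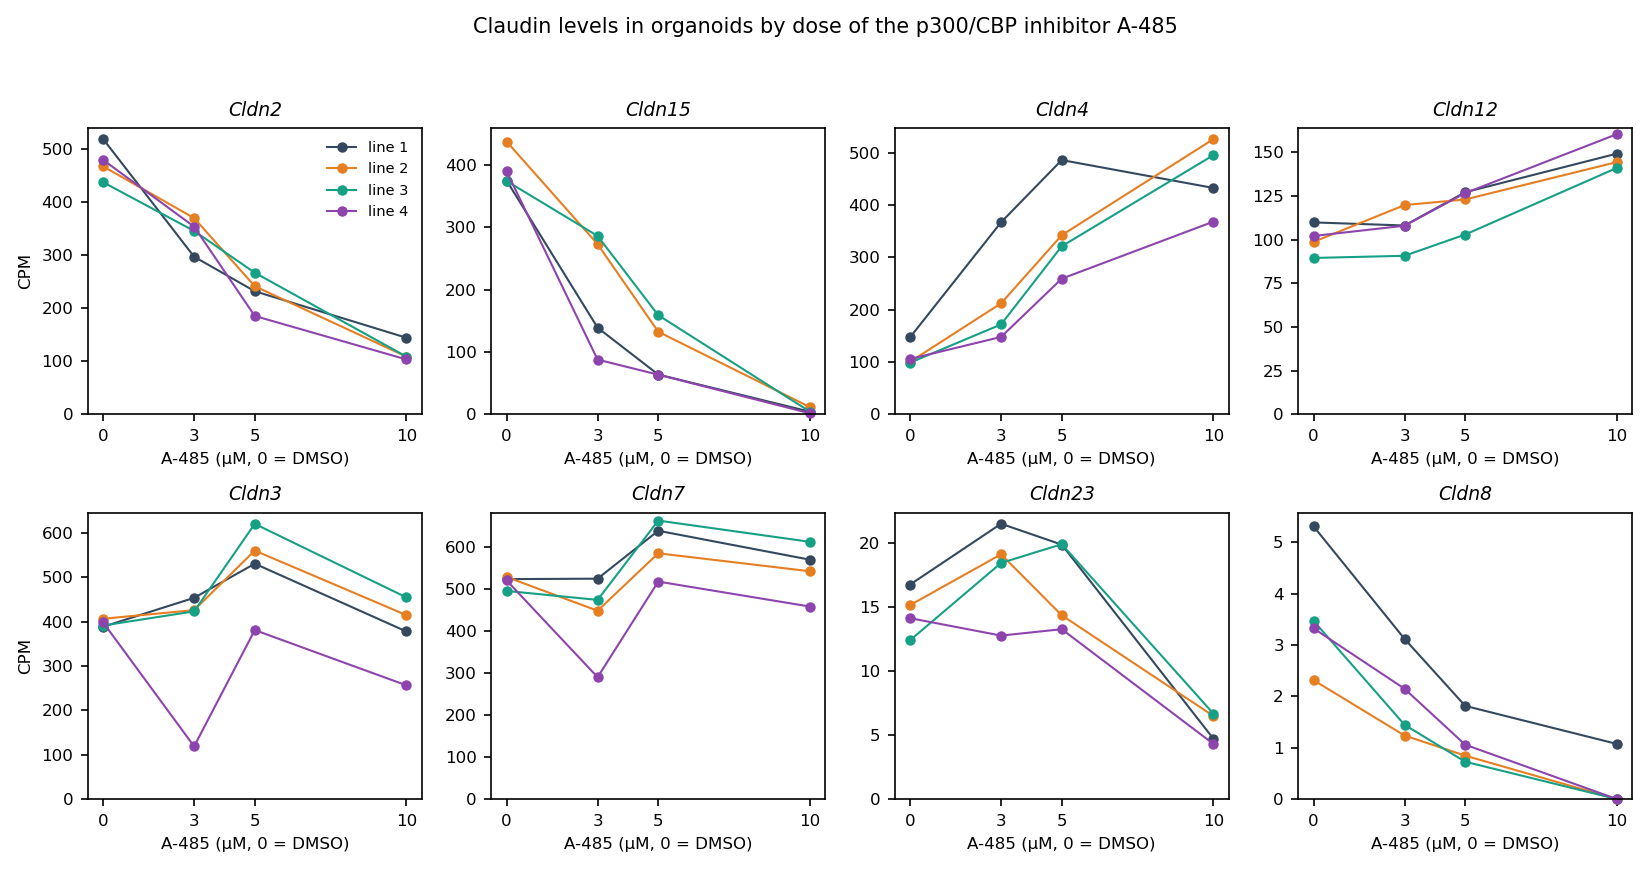
Claudin levels in the 4 organoid lines against A-485 dose in µM, in CPM on linear axes that start at 0, with 1 line joining the cultures of each organoid line. Cldn15 goes from 374 to 437 CPM without the inhibitor to 1.66 to 11.6 at 10 µM, while Cldn4 goes from 98.8 to 147 up to 368 to 526.

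In tissue Cldn15 was higher in villi than in crypts, by 1.83 in heterozygous Rosa26 mice (SE 0.12, adjusted p = 4.21e-08) and by 1.38 in heterozygous Vil1 mice (SE 0.14, adjusted p = 9.9e-06). The Rosa26 crypts had 312, 308, 274, 270 and 315 CPM and the villi 856, 1145, 878, 1240 and 1129. Homozygous Vil1 crypts had 115, 137 and 152 CPM, below the heterozygous 245, 208, 220 and 278, a fall of 0.82 (SE 0.13, adjusted p = 0.00271). Enterocyte markers were lower in the same crypts, 381 to 975 against 980 to 2432 CPM, with 3 of 6 called, and their part in this was not tested. In Vil1 villi the 2 genotypes overlapped (log2 difference 0.11, SE 0.16, adjusted p = 0.597). The genotype effect differed between the compartments by 0.95 (SE 0.22, adjusted p = 0.0108). Homozygous Rosa26 crypts had 322, 145, 190 and 264 CPM, overlapping their controls (-0.31, SE 0.20, adjusted p = 0.293).

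By edgeR, cultures that lost Eif4g2 did not differ in Cldn15 past the threshold in any of the organoid or spheroid comparisons, with or without the block. Flox/flox spheroids had 241, 84.3, 161, 51.9, 75.0 and 161 CPM with DMSO and 144, 12.4, 213, 12.5, 1.68 and 43.0 with 4-OHT, in the same order of lines. It was lower with 4-OHT in 5 of the 6 lines and higher in replicate 3 (log2 difference -0.86, SE 0.78, adjusted p = 0.49, and -1.94 with the line as a block, adjusted p = 0.0862). Enterocyte markers varied over the same cultures from 6.57 to 5845 CPM with 4-OHT, and replicate 3 had the most. In second-set organoids flox/flox had 211, 229, 323 and 336 CPM against 207, 198, 226 and 206 in CreER-only cultures (log2 difference 0.39, SE 0.15, adjusted p = 0.0503, and 0.0201 by DESeq2).

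The balance of the pores can be read from the level per kilobase. In heterozygous Rosa26 crypts Cldn15 had 2.62 times the Cldn2 level (2.455 to 2.959), and in homozygous ones 4.28 times (1.894 to 6.566), with overlap. The ratio was lower with deletion in Vil1 mice, 1.98 in heterozygous and 0.923 in homozygous crypts, and 134 and 18.9 in the villi. Second-set organoids had a higher ratio in flox/flox cultures, 1.74 against 0.938 in flox/+ and 0.852 in CreER-only ones. First-set organoids had 2.32 with DMSO and 2.34 with 4-OHT. So the ratio did not move in a single direction with deletion. In the A-485 experiment it was 1.30 with DMSO and 0.0752 at 10 µM (means over libraries). As shares of the summed per-kilobase level of the 10 claudins, Cldn2 went from 14.2% with DMSO to 3.92% at 10 µM and Cldn15 from 18.5% to 0.272%, while Cldn4 went from 6.19% to 27.7%. The sum itself was 957 to 1029 with DMSO and 714 to 1020 at 10 µM, in CPM per kilobase.

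**Figure D5:**
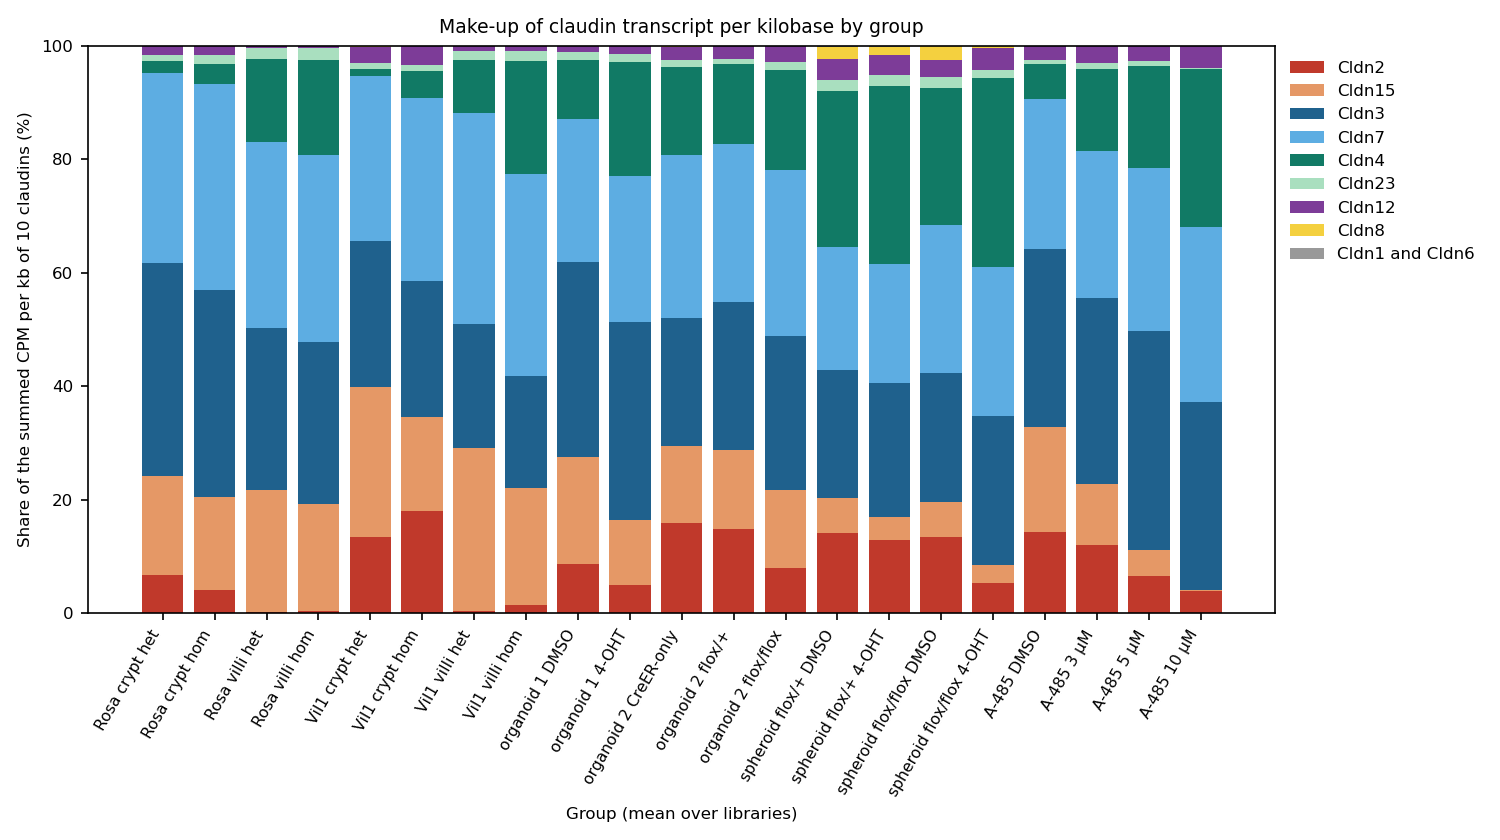
Share of each claudin in the summed level per kilobase of the 10 claudins, in percent, from the group means. Cldn2 and Cldn15 take 14.2% and 18.5% of the sum in the A-485 control cultures and 3.86% and 0.284% at 10 µM, and Cldn4 takes 6.20% and 27.7%.

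Cldn4, a barrier claudin of differentiated surface epithelium, moved opposite to Cldn2 along the crypt to villus axis, in second-set organoids that lost Eif4g2 and with A-485, and rose with deletion in Vil1 crypts and villi alike. Heterozygous Rosa26 crypts had 33.1, 23.5, 27.0, 47.75 and 18.1 CPM and the villi 375, 594, 836, 733 and 472 (log2 difference 4.35, SE 0.31, adjusted p = 9.37e-08). In heterozygous Vil1 mice it was 12, 10.2, 8.28 and 6.10 CPM in crypts and 179, 218, 222 and 84.2 in villi (4.21, SE 0.37, adjusted p = 1.04e-05). Homozygous Vil1 crypts had 37.5, 28.5 and 34.7 CPM, all above their controls, a rise of 1.88 (SE 0.22, adjusted p = 0.000906). Homozygous Vil1 villi had 657, 445, 652, 406, 970 and 370 CPM, again all above, a rise of 1.71 (SE 0.33, adjusted p = 0.00134). The 2 effects differed by -0.14 (SE 0.45, adjusted p = 0.863). In Rosa26 mice the genotypes overlapped in crypts (0.58, SE 0.49, adjusted p = 0.425) and in villi (0.54, SE 0.28, adjusted p = 0.164).

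Flox/flox organoids of the second set had 249, 292, 389 and 273 CPM of Cldn4 against 175, 189, 211 and 182 in flox/+, a rise of 0.66 (SE 0.11, adjusted p = 0.000348), and against 191, 212, 200 and 218 in CreER-only cultures, a rise of 0.55 (SE 0.11, adjusted p = 0.00142). In the first set the lines had 270, 306 and 139 CPM with DMSO and 706, 807 and 238 with 4-OHT. All 3 lines rose, which passed with the line as a block (1.19, adjusted p = 0.00137) and not without it (1.29, SE 0.47, adjusted p = 0.071). Flox/flox spheroids showed the same dependence: 0.61 with the block (adjusted p = 0.00247) and 0.66 without (SE 0.27, adjusted p = 0.0974), and all 6 lines were higher with 4-OHT. Flox/flox against flox/+ spheroids with 4-OHT did not differ past the threshold (0.33, SE 0.28, adjusted p = 0.508), nor did the 4-OHT effect between the genotypes (0.46 with the block, adjusted p = 0.0522). Spheroids held more Cldn4 than organoids, by 1.45 in flox/+ cultures (SE 0.31, adjusted p = 0.00384) and by 1.13 in flox/flox ones (SE 0.24, adjusted p = 0.00717).

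With A-485 Cldn4 was 147, 100, 98.8 and 106 CPM in DMSO, 367, 212, 172 and 148 at 3 µM, 486, 342, 321 and 259 at 5 µM and 433, 526, 495 and 368 at 10 µM. Each line rose from DMSO to 3 µM and from 3 to 5 µM. The log2 fold changes against DMSO were 0.99 (SE 0.25, adjusted p = 0.0101, and 0.65 without 3 µM replicate 1, the highest), 1.64 (SE 0.25, adjusted p = 4.81e-05) and 2.01 (SE 0.26, adjusted p = 3.05e-06). The step from 3 to 5 µM was called with the line as a block (0.68, adjusted p = 0.00443) and not without it (0.65, SE 0.25, adjusted p = 0.0669). From 5 to 10 µM it was 0.37 (SE 0.25, adjusted p = 0.345), and line 1 was lower at 10 µM than at 5 µM.

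Cldn3 and Cldn7, barrier claudins and the most abundant ones in Rosa26 tissue and organoids, had smaller differences than Cldn4 along the crypt to villus axis, with deletion in Vil1 mice and with A-485 against DMSO. Over the 21 group means their log2 levels had a Pearson r of 0.901, the highest of any pair among the 10 claudins, as a description of groups that share libraries' scaling and tissue. Both were higher in villi: in heterozygous Rosa26 mice Cldn3 was 353 to 399 CPM in crypts and 665 to 968 in villi (1.12, SE 0.10, adjusted p = 6.59e-07). Cldn7 was 498 to 555 CPM in those crypts and 1207 to 1684 in the villi (1.5, SE 0.10, adjusted p = 5.86e-08). In heterozygous Vil1 mice the differences were 1.01 for Cldn3 (adjusted p = 5.93e-05) and 1.62 for Cldn7 (adjusted p = 2.16e-06).

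Deletion raised both in Vil1 villi. Cldn7 had 1153, 1051, 1125, 1257, 1175 and 914 CPM in homozygous and 756, 689, 835 and 767 in heterozygous villi, with no overlap (0.53, SE 0.13, adjusted p = 0.00589). Cldn3 had 390, 397, 407, 483, 397 and 321 CPM against 274, 250, 322 and 304, with 1 pair of values overlapping (0.45, SE 0.14, adjusted p = 0.0157), a call lost without heterozygous replicate 1 (0.0531) or 2 (0.0595). Immune markers were lower in the same villi, 80.9 to 1469 against 2615 to 4601 CPM (5 of 7 called), and whether that changed the claudin shares was not tested. Immune markers were lower in homozygous Rosa26 villi too, 847 to 3239 against 3421 to 6885 CPM (4 of 7 called). In these villi Cldn7 was 1991, 2076, 1861, 1798 and 1901 CPM against 1207, 1560, 1493, 1684 and 1373, a rise of 0.35 (SE 0.11, adjusted p = 0.0335). The groups did not overlap, yet the call was lost without any of homozygous replicates 1 and 2 and heterozygous replicates 1, 2 and 5 (adjusted p = 0.0514 to 0.0858), and with Y-linked transcripts as a covariate (0.0655). Neither gene was called in crypts. The genotype effect on Cldn3 was larger in villi than in crypts by 0.71 in Vil1 mice (SE 0.19, adjusted p = 0.0202, lost without homozygous crypt replicate 1 or 2 at 0.0534 to 0.0602) and by 0.70 in Rosa26 mice (SE 0.21, adjusted p = 0.0406). The latter was not called with the animal as a block (adjusted p = 0.0794) and was lost in 14 of the 19 fits that each left out 1 library.

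Second-set flox/flox organoids had 266, 284, 402 and 333 CPM of Cldn3 against 238, 252, 250 and 237 in flox/+ (0.39, SE 0.10, adjusted p = 0.00505). Cldn7 was 521, 531, 542 and 552 CPM against 416, 394, 400 and 406 (0.40, SE 0.04, adjusted p = 4.48e-06). Against CreER-only cultures the rises were 0.63 for Cldn3 (adjusted p = 0.00014) and 0.39 for Cldn7 (adjusted p = 5.62e-06). In the first set Cldn7 was called only with the line as a block (0.34, adjusted p = 0.0343, against 0.074 without). In flox/flox spheroids Cldn3 was likewise called only with the block (0.36, adjusted p = 0.0294, against 0.219 without), and 5 of 6 lines were higher. With 4-OHT Cldn7 was higher in flox/flox than in flox/+ spheroids by 0.57 (SE 0.16, adjusted p = 0.0224), a call lost without flox/flox replicate 1 or flox/+ replicates 1, 2 or 5 and in a fit of the 2 groups alone (0.089). At 10 µM of A-485, where Cldn4 had risen and Cldn15 fallen, Cldn3 was 378, 415, 455 and 257 CPM against 389, 407, 391 and 398 with DMSO (-0.08, SE 0.30, adjusted p = 0.843). Cldn7 was 570, 542, 612 and 458 CPM against 524, 529, 496 and 521 (0.08, SE 0.14, adjusted p = 0.654). The 3 µM culture of replicate 4 stood apart, with 119 CPM of Cldn3 against 423 to 454 in the other 3 and 290 CPM of Cldn7 against 448 to 525. Cldn7 was 0.47 higher at 5 than at 3 µM (SE 0.14, adjusted p = 0.0228), a call lost without 5 µM replicate 1 or 3.

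Cldn8 and Cldn1, barrier claudins known from the distal gut, kidney and skin, were scarce in adult tissue and organoids and highest in the fetal spheroids. Cldn8 was 43.9, 41.2, 60.7, 19.7, 160 and 5.28 CPM in flox/flox spheroids with DMSO and 10.2, 3.04, 19.7, 0, 10.2 and 0.734 with 4-OHT. Every line was lower with 4-OHT, a fall of 2.93 (SE 0.92, adjusted p = 0.031). Without 4-OHT replicate 2 or 6 or DMSO replicate 5 the adjusted p was 0.0585 to 0.0971, in a fit of the 2 groups alone it was 0.081, and with the line as a block 0.0149. Against flox/+ spheroids with 4-OHT the difference was not called (-2.22, SE 0.92, adjusted p = 0.134). In the same flox/flox cultures the 5 goblet cell markers summed to 187 to 1442 CPM with 4-OHT and to 2738 to 18689 with DMSO, with no overlap (4 of 5 lower). Median sums of enterocyte, Paneth and stem markers were lower too, 140, 12.7 and 75.9 CPM against 3164, 205 and 282, with overlap. The part of these markers' cells in the falls of Cldn8, Cldn1 and Cldn2 was not tested. In flox/+ spheroids Cldn8 was 133, 20.9, 19.6, 37.1 and 26.5 CPM with DMSO and 69.8, 23.9, 18.9, 33.3 and 24.9 with 4-OHT (-0.47, SE 0.93, adjusted p = 1). Flox/+ spheroids stood 3.90 above flox/+ organoids (SE 0.43, adjusted p = 0.000146) and flox/flox spheroids 4.17 above flox/flox organoids (SE 1.34, adjusted p = 0.0441), the latter lost when any of 8 among the 10 libraries was left out (0.0562 to 0.123).

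Organoids held little Cldn8 and less without Eif4g2. In the second set it was 0.371, 0.185, 0.503 and 0.505 CPM in flox/flox, 1.47, 2.68, 2.30 and 2.33 in flox/+ and 3.00, 3.56, 3.84 and 3.11 in CreER-only cultures. These 3 groups did not overlap, and flox/flox fell by 2.47 against flox/+ (SE 0.30, adjusted p = 1.2e-05) and by 3.08 against CreER-only (SE 0.30, adjusted p = 1.26e-06). In the first set it was 2.53, 2.29 and 1.24 CPM with DMSO and 0.425, 0.236 and 0.155 with 4-OHT (-2.88, SE 0.45, adjusted p = 0.00297). The 4-OHT libraries held 14, 7 and 5 reads, and Cldn8 passed the filter there only through the DMSO libraries. With A-485 it went from 5.31, 2.31, 3.47 and 3.32 CPM in DMSO to 1.07, 0, 0 and 0 at 10 µM (-3.66, SE 0.96, adjusted p = 0.00284). The 10 µM reads were all in replicate 1, without which the fitted value was -8.51. Between 5 and 10 µM the difference passed only with the line as a block (-2.59, adjusted p = 0.0408, against 0.166 without it). In heterozygous Rosa26 mice the crypts had 1.16 to 2.51 CPM and 4 of 5 villus libraries none (-5.64, SE 0.73, adjusted p = 1.67e-05, and a fitted value of -8.73 without villus replicate 3, the library with reads). In Vil1 mice the difference was -2.72 (SE 1.12, adjusted p = 0.0574), and -2.99 with the animal as a block (adjusted p = 0.00234). Fold changes at levels this low depend on the prior count of the fit.

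Cldn1 reached 1 CPM in spheroids and in some Rosa26 crypts only. Flox/+ spheroids had 5.44, 7.41, 7.42, 6.02 and 2.02 CPM with DMSO and 3.63, 4.64, 8.50, 5.50 and 2.66 with 4-OHT. Flox/flox spheroids had 0.256, 4.47, 0.220, 6.14, 1.21 and 1.54 CPM with DMSO and 0, 0.346, 0.0587, 0, 0 and 0.420 with 4-OHT, so every line was lower with 4-OHT. The 6 flox/flox libraries with 4-OHT held 14 Cldn1 reads in all, against 292 with DMSO and 512 in the 5 flox/+ libraries with 4-OHT. As ratios of summed reads, the level was 19.6 times lower than with DMSO (exact 95% interval 11.5 to 36.3) and 38.0 times lower than in flox/+ (22.5 to 70.1), for counting error only. Cldn1 passed the filter on low counts only through the flox/+ spheroids, so it was tested against them only because they were high. The fitted values, which depend on the prior count, fell by 4.04 within flox/flox (SE 0.91, adjusted p = 0.00389) and decreased by 5.14 against flox/+ (SE 0.96, adjusted p = 0.00156). The 4 flox/+ organoid libraries held 3 reads in all, a level 130.2 times lower than in flox/+ spheroids with 4-OHT (exact 95% interval 44.3 to 634, for counting error only). Homozygous Rosa26 crypts had 1.87, 2.21, 2.79 and 0.239 CPM against 0.0631 to 1.29 in heterozygous ones (1.63, SE 0.79, adjusted p = 0.173). Stromal markers, 34.5 to 1989 CPM in the former and 21.1 to 816 in the latter, varied among the same crypt libraries, with 0 of 7 called.

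Cldn6 was present in some spheroid lines and nearly absent elsewhere. It was at 1.37 to 7.11 CPM in 5 of the 11 lines, both with DMSO and with 4-OHT: flox/flox replicates 1, 2 and 3 and flox/+ replicates 2 and 3. The other 6 lines had at most 0.472 CPM, and 9 of their 12 libraries had no read. Both genotypes and both treatments were on each side of that split, and no spheroid comparison called Cldn6. In flox/flox replicates 1, 2 and 3 it was 2.46, 1.37 and 1.98 CPM with DMSO and 7.11, 2.90 and 3.11 with 4-OHT. Over the flox/flox lines the difference was 1.40 with the line as a block (adjusted p = 0.145). In flox/+ replicates 2 and 3 Cldn6 was 3.71 and 6.09 CPM with DMSO and 3.03 and 5.76 with 4-OHT. Its neighbour Cldn9 did not separate the same lines, at 0.165 to 2.02 CPM in the first 5 and 0 to 2.38 in the others. No A-485 library had a Cldn6 read, and it stayed at or under 0.281 CPM in all other tissue and organoid libraries.

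Cldn12 differed little between crypts and villi and was higher in organoids that had lost Eif4g2 and in flox/flox spheroids given 4-OHT than in those given DMSO. It was 47.3 to 55.0 CPM in heterozygous Rosa26 crypts and 37.8 to 55.6 in villi (-0.09, SE 0.10, adjusted p = 0.41). In the first organoid set it was 59.1, 59.1 and 56.1 CPM with DMSO and 101, 95.5 and 94.5 with 4-OHT (0.74, SE 0.07, adjusted p = 0.000656). In the second, flox/flox cultures had 113, 119, 126 and 111 CPM against 66.2, 68.8, 73.5 and 73.5 in flox/+ (0.73, SE 0.06, adjusted p = 1.19e-07) and 70.2, 74.0, 73.0 and 72.3 in CreER-only cultures (0.70, SE 0.06, adjusted p = 1.78e-07). The groups did not overlap. All 6 flox/flox spheroid lines were higher with 4-OHT (0.53, SE 0.16, adjusted p = 0.0278), and the block gave 0.52 with adjusted p = 0.00102. Without the block that call was lost when any of 6 libraries was left out (0.0627 to 0.0675). Against flox/+ spheroids with 4-OHT the difference was not called (0.38, SE 0.17, adjusted p = 0.169). With A-485 it was 109.8, 98.7, 89.5 and 102 CPM in DMSO and 149, 144, 141 and 160 at 10 µM (0.57, SE 0.11, adjusted p = 0.000125). At 5 µM it was 0.26 (adjusted p = 0.0474, lost without any of 6 of the 8 libraries and 0.0854 by DESeq2) and from 5 to 10 µM 0.31 (adjusted p = 0.0464, lost without any of 7 of 8 but 0.00867 with the line as a block). In Vil1 mice Cldn12 was 0.46 higher in homozygous villi (adjusted p = 0.0411, lost without any of 7 libraries at 0.0607 to 0.12 and 0.0609 by DESeq2) and different by -0.29 between heterozygous villi and crypts (adjusted p = 0.019, lost without any of 3 libraries at 0.0561 to 0.0612 and 0.103 by DESeq2). Flox/+ spheroids exceeded flox/+ organoids by 0.93 (SE 0.11, adjusted p = 0.000174) and flox/flox ones by 0.59 (SE 0.17, adjusted p = 0.025, lost without any of 5 libraries at 0.0514 to 0.0775).

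Cldn23 followed the villus pattern of Cldn4 in tissue but not with A-485. Heterozygous Rosa26 crypts had 17.2, 12.9, 13.2, 19 and 15.9 CPM and villi 65.9, 83.7, 99.6, 96.7 and 64.5 (2.40, SE 0.15, adjusted p = 3.68e-08), and the Vil1 difference was 1.87 (SE 0.17, adjusted p = 3.32e-06). Homozygous Vil1 villi had 43.6, 46.5, 44.8, 61.9, 69.2 and 44.8 CPM, above the 33.6, 25.1, 38.2 and 26.6 of their controls (0.73, SE 0.17, adjusted p = 0.00383). The effect was larger there than in crypts by 0.87 (SE 0.27, adjusted p = 0.0363), a call lost in 9 of the 17 fits that each left out 1 library. Second-set flox/flox organoids had 16.5, 21.4, 27.1 and 25.5 CPM against 16.8, 14.4, 10.8 and 9.997 in flox/+ (0.80, SE 0.19, adjusted p = 0.00311). Against CreER-only cultures it was 0.52 (SE 0.18, adjusted p = 0.0323), lost without flox/flox replicate 3 or 4 or CreER-only replicate 2 or 4 (0.085 to 0.093). With A-485 it was 16.8, 15.2, 12.4 and 14.1 CPM in DMSO and 4.73, 6.5, 6.69 and 4.32 at 10 µM (-1.39, SE 0.22, adjusted p = 2.51e-05), with no change called at 3 or 5 µM. Between 5 and 10 µM it fell by 1.60 (SE 0.22, adjusted p = 4.19e-05).

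Other tight junction genes were counted from a list of 32 symbols, of which 31 were in the tables: scaffolds such as Tjp1 to Tjp3 and Cgn, occludin and its relatives, the JAM adhesion molecules and the Par and Crumbs polarity proteins. At 3 µM of A-485, 10 of 30 tested were higher and 2 lower, where 10.8% and 8.42% of all tested genes were. At 5 µM it was 22 and 2 (24.4% and 25.1% of all genes), and at 10 µM 25 and 2 (29.4% and 32.6%). Their median log2 fold change at 10 µM was 0.79 against -0.05 over all tested genes, and that of the 8 tested claudins was -0.73. The largest rise there was Jam2 (5.19, adjusted p = 1.63e-06) and the largest fall Tjp3 (-1.61, adjusted p = 1.67e-08), a scaffold that binds claudin tails. Jam2 had a mean of 0.28 CPM with DMSO and 10.4 at 10 µM, so its fitted value depends on the prior count. Villi against crypts gave 17 higher and 5 lower of 26 in heterozygous Rosa26 mice (36.4% and 40.6% of all genes) and 17 and 6 of 27 in Vil1 mice (32.7% and 35.2%). Pard6b, a polarity protein, led the rises in both (2.24, adjusted p = 3.85e-09, and 2.06, adjusted p = 6.06e-07).

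With deletion, the list gave 3 higher and 5 lower of 29 in Rosa26 crypts, where 8.63% and 11.6% of all tested genes were called in these directions. The same pair was 3 and 5 of 31 in Vil1 crypts (11.6% and 17.7%), 11 and 1 of 27 in Rosa26 villi (15% and 18.2%), and 8 and 2 of 26 in Vil1 villi (20.9% and 21.6%). In organoids it was 13 and 1 of 29 in the first set (18.2% and 17.2%), 13 and 3 of 28 against flox/+ (22.6% and 24.3%) and 10 and 4 of 28 against CreER-only cultures (21.9% and 23.5%). In flox/flox spheroids it was 6 higher and 0 lower of 30 with 4-OHT against DMSO (9.01% and 10.0%), and 3 and 0 of 30 against flox/+ with 4-OHT (4.36% and 6.13%). In Vil1 crypts and villi and in both spheroid comparisons, the share of the list called in either direction was near or below that of all genes. Magi2, a scaffold with several PDZ domains, was the largest rise of the list in each of these 9 comparisons, from 1.81 in flox/flox spheroids (adjusted p = 0.0096) to 5.30 in Rosa26 villi (adjusted p = 0.00106), but its group means were at most 4.30 CPM. Its control means ran from 0.0403 CPM in heterozygous Rosa26 villi to 1.01 in first-set organoids with DMSO. In Rosa26 villi it passed the filter on low counts only through the homozygous libraries. Fold changes of Magi2 at these levels depend on the prior count. Tjp3 fell in both crypt comparisons, decreased by 0.77 in Rosa26 mice (adjusted p = 0.00127) and decreased by 0.83 in Vil1 mice (adjusted p = 0.000836). Spheroids against organoids gave 18 higher and 4 lower of 29 in flox/+ cultures (25.1% and 22.8% of all genes) and 10 and 2 of 29 in flox/flox cultures (15.2% and 9.45%). The largest fitted rise in both was Mpdz, another PDZ scaffold (6.17, adjusted p = 0.000376, and 6.46, adjusted p = 0.000465). Its organoid means were 0.0393 CPM in flox/+ and 0.0853 in flox/flox cultures, against 3.27 and 8.37 in spheroids. So it passed the filter on low counts only through the spheroids, and these fitted values depend on the prior count.

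Of 16 transcription factors reported to act on claudin genes, 4 fell and 0 rose of 14 tested in homozygous Rosa26 crypts, where 11.6% of all genes fell and 8.63% rose, and 7 fell and 0 rose in Vil1 crypts (17.7% and 11.6%). Vdr, the vitamin D receptor, was the largest fall in both (-1.10, adjusted p = 0.0105, and -1.75, adjusted p = 0.000239). At 10 µM of A-485, 9 fell and 1 rose of 14 (32.6% and 29.4% of all genes), with a median of -0.92 against -0.05 over all tested genes. Cdx1, an intestinal homeobox factor, was at a mean of 174 CPM with DMSO and 7.59 at 10 µM (-4.49, adjusted p = 1.57e-09), and Grhl2, a grainyhead-like factor of epithelia, was the single riser (0.50, adjusted p = 0.00516). Elsewhere factors of the list were called in both directions. Tcf7l2 (1.09, adjusted p = 0.00838) and Klf4 (0.91, adjusted p = 0.000205) rose in homozygous Rosa26 villi, and Vdr fell. Against flox/+ in the second organoid set, Tcf7l2 (0.52, adjusted p = 8.48e-05) and Gata4 (0.37, adjusted p = 0.000151) were higher, and Snai2 and Vdr lower. At 5 µM of A-485 Klf4 (0.95, adjusted p = 0.00261) and Tcf7l2 (0.41, adjusted p = 0.00901) rose, while Snai2 and Vdr fell. With deletion Grhl2 rose in villi of Rosa26 mice (0.86, adjusted p = 0.000586) and Vil1 mice (1.19, adjusted p = 0.000114), in the first organoid set (0.56, adjusted p = 0.00257), against flox/+ in the second (0.26, adjusted p = 0.0225) and in flox/flox spheroids (0.54, adjusted p = 0.00957). It was not called in Vil1 crypts (0.09, adjusted p = 0.515), against CreER-only organoids (0.09, adjusted p = 0.432) or in flox/flox against flox/+ spheroids with 4-OHT. In Rosa26 crypts it was not called as higher, and its genotype effect was larger in Rosa26 villi than in crypts by 1.17 (adjusted p = 0.00498). That difference exceeds the rise of 0.86 in villi, so the crypt effect pointed to lower Grhl2. Grhl2 was lower in villi than in crypts of heterozygous Rosa26 mice (-2.15, adjusted p = 6.49e-09). Its part in the claudin changes was not tested.

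Of the 25 other claudin symbols in the tables, 4 reached a mean of 1 CPM in any group: Cldn10 (1.59 CPM in homozygous Rosa26 crypts), Cldn18 (1.17 at 3 µM of A-485), Cldn16 (1.09 in flox/+ spheroids with DMSO) and Cldn9 (1.02 in flox/+ spheroids with 4-OHT). Over the 21 group means, on log2(CPM + 0.5), the genes whose levels went most closely with each claudin were Ndc1 for Cldn2 (Pearson r 0.969), Myo1a for Cldn15 (0.962), Pard6b for Cldn4 (0.95), Cmip for Cldn3 (0.967), Cyhr1 for Cldn7 (0.974), Bex1 for Cldn8 (0.951), Stam for Cldn12 (0.955) and Unc5b for Cldn23 (0.937). These are descriptions over groups that share tissues, lines and scaling. The lowest r between 2 of the claudins was -0.80, for Cldn2 and Cldn7.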

How the data were processed

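Poly(A) RNA of 92 libraries in 21 groups was sequenced from directional libraries, per the labels' protocols. The authors deposited raw read counts per gene in 4 tables of 54532 gene rows. Reads were aligned with HISAT2 2.0.5 to GRCm38/mm10, per the submitters' processing notes, and the counting program and annotation are not given in the sources used here. Library totals lay between 8652040 and 37611126 reads, so the A-485 libraries, the shallowest, give the least precise low values.

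Counts were filtered with filterByExpr, scaled by TMM and tested with edgeR 4.0.16 (quasi-likelihood, robust) in R 4.3.3 with limma 3.58.1, and p-values were adjusted by Benjamini-Hochberg over all tested genes in each of 24 comparisons. DESeq2 1.42.0 was an alternative. Other alternatives were its size factors, no filter, other sets of groups in the fit, the replicate block, Y-linked transcripts or animal series as covariates, and each library left out. Standard errors are the absolute log2 fold change over the square root of F. The fit was tested on simulated data. Tables and figures used Python 3.11.15, pandas 2.3.3 and matplotlib 3.10.9. No 2 libraries of a group agreed within sampling noise.

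The claudins and gene lists were chosen with earlier results of these data known. All claudins on the list are described. From each other list, up to the 2 called genes with the largest rise and the 2 with the largest fall could be named per comparison, and Grhl2 and Tjp3 were followed further after their values were seen.

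Crypt and villus libraries of 1 animal and cultures of 1 line are true pairs by the labels. Same-numbered libraries there correlated, in deviations from their group means, at 0.358 to 0.521 in the first organoid set, 0.398 to 0.793 in flox/flox and 0.664 to 0.873 in flox/+ spheroids, 0.0645 to 0.35 with A-485, -0.0329 to 0.176 in heterozygous Rosa26 mice and 0.0358 to 0.29 in heterozygous Vil1 mice.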

Additional observations from a re-analysis of the deposited data

Results flagged for a closer look

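Of 144 sets of 4 to 10 libraries, 7 had 1 library far from the rest by Dixon's criterion, and chance flags about 1 set in 20. Cldn3 at 3 µM of A-485 was 118.9 CPM in replicate 4 and 423.4 to 454 in the other 3. Cldn2 at 10 µM was 144.3 CPM in replicate 1 against 103.4 to 108.7, and Cldn4 with DMSO was 147.3 CPM in replicate 1 against 98.75 to 105.8. Cldn12 at 5 µM was 102.9 CPM in replicate 3 against 122.9 to 127.1. Cldn8 was 160.5 CPM in replicate 5 of the flox/flox spheroids with DMSO against 5.278 to 60.73. In replicate 1 of the flox/+ spheroids, which is 1 line, Cldn8 was 133.3 CPM with DMSO against 19.59 to 37.07, and 69.77 with 4-OHT against 18.88 to 33.29.

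Genotype effects that differed between villi and crypts, by edgeR's test of the difference itself, were those of Cldn3 in Rosa26 mice (0.70, adjusted p = 0.0406), and of Cldn2 (2.30, adjusted p = 0.0409), Cldn3 (0.71, adjusted p = 0.0202), Cldn15 (0.95, adjusted p = 0.0108) and Cldn23 (0.87, adjusted p = 0.0363) in Vil1 mice.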

How the results depend on the processing

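Of 203 differences of single claudins, 79 were called, 61 of these stayed called with every library left out in turn, and 0 reversed. Of the uncalled ones 29 reversed. Size factors in place of TMM left all 24 counts of called claudins within 1.5 times. The counts of called claudins that moved are given with the reported count in brackets. Without the filter on low counts they were 4 in the first organoid set (2), 2 for 4-OHT in flox/flox spheroids (4), 1 at 3 µM of A-485 (2) and 0 for the Rosa26 villus to crypt difference in genotype effect (1). DESeq2 gave 3 in Rosa26 villi (1), 3 for that Rosa26 difference (1) and 1 for the spheroid difference in 4-OHT effect (0). Fits of all groups gave 0 in Rosa26 crypts (1), 5 in Rosa26 villi (1) and 5 for flox/flox spheroids against organoids (3), and fits of 2 groups alone gave 1 for 4-OHT in flox/flox spheroids (4) and 7 at 5 µM (4). With Y-linked transcripts as a covariate they were 2 in Rosa26 crypts (1) and 0 for the Rosa26 difference (1). The cause of these moves was not tested.

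With the replicate block the counts were 5 in the first organoid set (2), 4 for 5 against 3 µM (2), 0 for the Rosa26 difference (1) and 4 for the spheroid difference (0), where animals or lines pair the libraries. Where samples share only a number, the block gave 2 in Rosa26 crypts (1; Cldn1 joined at 0.0486) and 1 for flox/flox against flox/+ spheroids with 4-OHT (3; Cldn2 went to 0.0511 and Cldn7 to 0.0717), it ended the calls of Cldn7 in Rosa26 villi (adjusted p = 0.0785), Cldn2 (0.0916) and Cldn12 (0.0563) in Vil1 villi and Cldn23 against CreER-only organoids (0.0586), and it brought Cldn12 in Rosa26 villi under the threshold (0.0439). Same-numbered libraries there correlated from -0.475 to 0.627. Apart from these and the blocked values given in the results, the block changed no other call, and Cldn1 for 4-OHT in flox/flox spheroids has no blocked value, since it was filtered out of the fit of those libraries alone.

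Directions that reversed were all of uncalled differences. The Y-linked covariate gave 0.12 for Cldn3, 0.18 for Cldn7 and 0.21 for Cldn15 in Rosa26 crypts, and -0.44 for Cldn1, -0.76 for Cldn4, -1.52 for Cldn8 and -0.0496 for Cldn23 in the Rosa26 difference, where the animal series as a covariate gave -0.20 for Cldn1. The block gave -0.0206 for Cldn15 in Vil1 villi, and the fit of 2 groups 0.0049 for Cldn2 in spheroids with DMSO.

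Leaving out each library gave 1 to 2 called claudins in Rosa26 crypts, 0 to 3 in Rosa26 villi, 2 to 3 in Vil1 crypts, 4 to 6 in Vil1 villi, 7 to 8 and 6 to 8 for villi against crypts in Rosa26 and Vil1 mice, 2 to 6 in the first organoid set (6 without 4-OHT replicate 3), 7 to 8 against flox/+ and 6 to 8 against CreER-only organoids, 2 to 4 in flox/flox spheroids, 2 to 3 for genotype with 4-OHT, 5 to 6 and 1 to 3 for flox/+ and flox/flox spheroids against organoids, 2 at 3 µM, 3 to 4 at 5 µM, 6 at 10 µM, 1 to 3 for 5 against 3 µM, 3 to 4 for 10 against 5 µM, and 0 to 3 and 1 to 4 for the Rosa26 and Vil1 differences. Ranges that crossed 0 were, in flox/+ spheroids with 4-OHT against DMSO, -0.14 to 0.0043 for Cldn12, -0.10 to 0.25 for Cldn23, -0.02 to 0.19 for Cldn3, -1.36 to 0.92 for Cldn6, -0.0752 to 0.0393 for Cldn7 and -0.90 to 0.39 for Cldn8. For genotype with DMSO they were -0.15 to 0.38 for Cldn15, -0.12 to 0.077 for Cldn2, -0.0226 to 0.19 for Cldn3, -0.26 to 0.0552 for Cldn4, -1.55 to 0.0653 for Cldn6 and -0.46 to 1.10 for Cldn8, and with 4-OHT -0.94 to 0.14 for Cldn15, -0.30 to 0.06 for Cldn23 and -0.45 to 1.54 for Cldn6. In organoids they were -0.0364 to 0.14 for Cldn15 and -0.0226 to 0.0031 for Cldn7 (flox/+ against CreER-only), -0.0008 to 0.51 for Cldn23 (first set) and -0.0278 to 0.17 for Cldn7 (flox/flox spheroids against organoids). With A-485 they were -0.22 to 0.0072 for Cldn23 (5 against 3 µM), -0.18 to 0.0732 for Cldn3 at 10 µM and -0.29 to 0.13 at 3 µM. In tissue they were -0.31 to 0.085 for Cldn23 and -0.0609 to 0.11 for Cldn7 in Vil1 crypts, -0.0558 to 0.86 for Cldn4 in Rosa26 crypts, -0.46 to 0.54 for Cldn1 and -0.18 to 0.64 for Cldn4 in the Rosa26 difference, and -0.36 to 0.014 for Cldn4 and -0.33 to 2.28 for Cldn8 in the Vil1 difference. Depth limits Cldn1, Cldn6 and Cldn8 outside the spheroids, where levels rest on few reads.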
